A study of Mus musculus with 64 samples.

Results

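Bid and 9 other genes of the Bcl2 family (Bcl2l11, Bbc3, Bad, Pmaip1, Bax, Bak1, Bcl2, Bcl2l1 and Mcl1) are described here across 3 mouse tissues, 2 ages and 2 genotypes. The members are the rows of the deposited expression table whose gene ID maps to these symbols, and all 10 were found among 36332 gene IDs. Bid was chosen by its KO and WT values in liver, where it was lower in Myc knockout mice, so its values in that comparison are given as a description without a test.

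The Bcl2 family controls the permeability of the outer mitochondrial membrane, the step at which cytochrome c leaves the mitochondrion and caspases are switched on. BH3-only proteins sense stress and either activate the pore-forming effectors Bax and Bak or block the pro-survival proteins Bcl-2, Bcl-xL and Mcl-1. Bid is cleaved by caspase-8 downstream of death receptors, and in hepatocytes this cleavage carries the Fas signal to the mitochondria.

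Mice aged 5 or 20 months gave bulk RNA of skeletal muscle, liver and omental adipose tissue, in 64 libraries and 12 groups. The knockout mice (MycKO, called KO) were a cross of a B6.129 line that carries Gt(ROSA)26Sortm1(cre/ERT2)Tyj/J, a tamoxifen-activated Cre recombinase, and a B6.129S6 line that carries the floxed Myc allele Myctm2Fwa/Mmjax. The wild-type mice (WT) were labelled C57/B6, and KO and WT mice alike are labelled as given 5 tamoxifen injections of 75 mg/kg after weaning, at 15 g or more. Each group held 5 libraries at 20 months and 6 at 5 months, except for 4 in young KO muscle. KO and WT groups differ in Myc, in the Cre allele and in strain background, and these differences cannot be told apart by this design. Gt(ROSA)26Sor is active in most cell types, so the loss of Myc was not aimed at a single one. In bulk tissue, fewer cells of a type and less RNA per cell cannot be told apart either.

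Library codes begin with K or W for the genotype and carry F, L or S for adipose tissue, liver or muscle. At 5 months the codes of different tissues share a closing number (K5L4285 and K5F4285). The codes of the older mice hold 18, while their age label is 20 months. The libraries held 15.4 to 28.5 M reads on genes. Values are the deposited CPM, a read signal scaled by the authors with 1 factor per library, and log2 differences were taken of log2(CPM + 1), so those of genes with few reads come out too small. The inactivated gene Myc was lower in every liver KO library (1.12 to 4.04 CPM) than in every liver WT library (5.36 to 33.7 CPM), while its muscle ranges overlapped. Hepatocyte and skeletal muscle marker lists were high in their own tissue in each library. Several adipose libraries also held RNA of other organs: 4 young ones carried more than 100 CPM of epididymis genes, namely K5F4284 (7758 CPM), K5F5248 (5025 CPM), K5F5218 (1084 CPM) and W5F5299 (1069 CPM). The old WT muscle library W18S42 held 2802 CPM of hepatocyte genes, and the young WT muscle library W5S5299 held 144 CPM of epididymis genes. Xist marked 12 libraries, 2 in each 5-month group and none at 20 months, so every comparison of ages also differs in the share of Xist libraries.

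The promoters of Bid, Bax and Bbc3 are shown because the data compare Myc knockout with wild-type mice. The known recognition letters of Myc are the E-box CACGTG. The windows shown are the 250 bases before a RefSeq start on GRCm38.p6, read 5′ to 3′ on the gene's strand, with CACGTG in capitals. The Bid window lies at chr6:120916825-120917074 (minus strand), that of Bax at chr7:45466899-45467148 (minus strand) and that of Bbc3 at chr7:16310181-16310430 (plus strand, 1 of its 3 promoters). The Bid gene span has its 5′ end at 120917062, so most of the Bid window lies inside that span. Bases further upstream of Bid were not read.
Bid: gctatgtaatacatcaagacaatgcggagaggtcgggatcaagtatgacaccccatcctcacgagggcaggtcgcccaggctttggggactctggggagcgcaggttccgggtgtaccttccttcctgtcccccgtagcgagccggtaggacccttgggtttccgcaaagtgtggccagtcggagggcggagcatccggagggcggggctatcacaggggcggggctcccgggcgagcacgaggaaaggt
Bax: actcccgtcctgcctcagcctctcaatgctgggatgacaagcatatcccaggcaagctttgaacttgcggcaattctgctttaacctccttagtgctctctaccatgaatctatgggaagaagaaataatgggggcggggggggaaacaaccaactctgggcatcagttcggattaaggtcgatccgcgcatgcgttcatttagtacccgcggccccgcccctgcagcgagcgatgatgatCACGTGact
Bbc3: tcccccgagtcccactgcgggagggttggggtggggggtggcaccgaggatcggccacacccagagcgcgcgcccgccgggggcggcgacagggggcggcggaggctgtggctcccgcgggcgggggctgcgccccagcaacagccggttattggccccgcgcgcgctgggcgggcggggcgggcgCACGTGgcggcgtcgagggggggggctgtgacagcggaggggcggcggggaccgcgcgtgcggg
The Bid window held no CACGTG, which reads the same on both strands, and this says only that these letters are not in this window. The Bax window held it 9 bases before the start and the Bbc3 window 64 bases before the start. RefSeq entries were found for 9 of the 10 members with 15 promoters in all, and 2 members, Bax and Bbc3, had a promoter with the motif. Of 32851 mouse promoters in the table (250 bases before to 50 after the start), 7.15% held it, and 8.09% of genes had such a promoter. Of the windows of 250 bases before the start, 6.02% held it. The Bid window had a GC content of 63.6% against a median of 52.4% over all such windows. A match is a description of the letters and no evidence of binding.

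Bid (gene ID 12122, chromosome 6, 120893119 to 120917062 on GRCm38.p6, minus strand) was a moderately expressed gene in liver and adipose tissue and near the limit of detection in muscle. In WT liver at 5 months the 6 libraries ran from 14.2 to 20.7 CPM with a median of 17.4, and in KO liver from 5.79 to 12.5 CPM with a median of 7.72. At 20 months the WT livers held 22.7, 22.9, 23, 24.8 and 33.5 CPM and the KO livers 5.37, 6.50, 7.31, 8.60 and 8.83 CPM. Every KO liver therefore lay below every WT liver at both ages, and the gap was wider in the older mice.

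**Figure D1:**
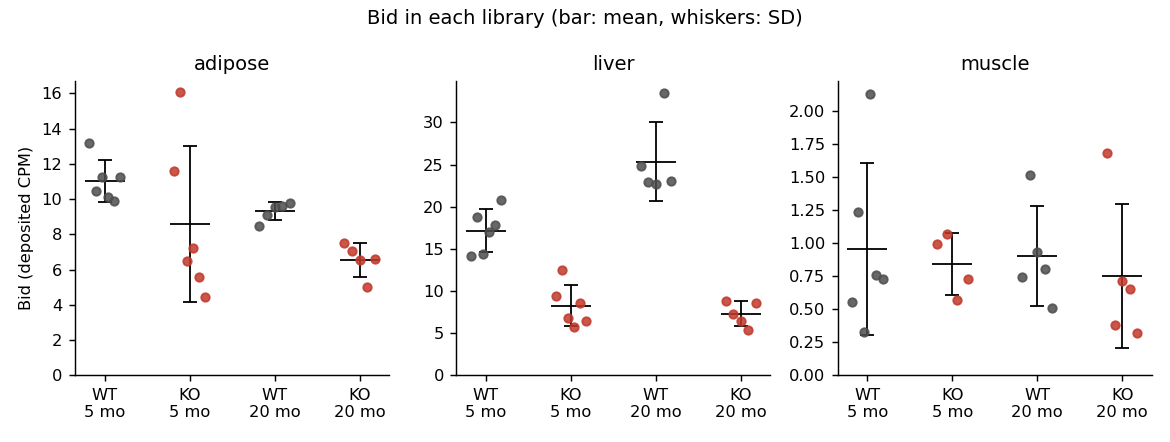
Bid in each library, as deposited CPM on the vertical axis, for the 4 groups of adipose tissue, liver and muscle (points are libraries, bars means and whiskers SD, with a scale per tissue). The KO livers sit between 5.37 and 12.5 CPM, below all WT livers, and all muscle libraries are at or below 2.13 CPM.

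The mean was 17.2 ± 2.54 CPM (SD, n = 6) in WT and 8.28 ± 2.47 CPM (n = 6) in KO liver at 5 months, a 2.07-fold lower KO mean and a log2 difference of -0.996 (SE 0.158). At 20 months it was 25.4 ± 4.63 CPM (n = 5) in WT and 7.32 ± 1.45 CPM (n = 5) in KO liver, a 3.46-fold lower KO mean and a log2 difference of -1.67 (SE 0.174). These values chose Bid and carry no test. For reference, 0.0696% of 12924 liver genes were called at 5 months and 0.0232% at 20 months with limma (adjusted p under 0.05), and 0.201% and 2.46% had groups that did not overlap. The depth behind these livers was 75 to 173 Bid reads per KO library at 5 months and 193 to 261 per WT library. Over 20 alternative settings at 5 months the log2 difference ran from -1.11 to -0.90, and over 18 settings at 20 months from -1.81 to -1.57.

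Cell type markers in liver overlapped between the genotypes. The summed CPM of 6 macrophage genes ran from 192 to 252 in KO and from 153 to 234 in WT liver at 20 months, and from 301 to 445 and 150 to 403 at 5 months. The 6 T cell genes summed to 3.50 to 5.47 CPM in KO and 1.29 to 4.02 CPM in WT liver at 20 months, and to 4.17 to 9.89 and 1.75 to 4.58 CPM at 5 months. The 6 hepatocyte genes summed to 103600 to 168200 CPM in KO and 111200 to 214800 CPM in WT liver at 5 months. The part of such shifts in the Bid difference was not tested.

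The liver Bid level was higher in the older WT mice and not in the older KO mice. WT liver Bid was higher at 20 than at 5 months by 0.53 on the log2 scale (SE 0.166), with every older library above every younger one, as for 4.95% of all liver genes. Over 19 alternatives this difference ran from 0.43 to 0.72. KO liver Bid differed by -0.14 between the ages (SE 0.166), and the KO difference changed with age by -0.67 (SE 0.235). These values come from the liver libraries that chose Bid, so they are a description as well and carry no test.

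In adipose tissue the KO values again lay on the low side, with less separation. At 20 months the WT libraries held 8.50, 9.13, 9.54, 9.63 and 9.77 CPM and the KO libraries 5.01, 6.53, 6.58, 7.06 and 7.54 CPM, so that the highest KO value was under the lowest WT value. Non-overlapping groups were seen for 1.29% of adipose genes in that comparison, and Bid was the single one of the 10 members. The log2 difference of -0.46 (SE 0.217) was not called by limma (adjusted p 1). Over 19 alternatives its adjusted p stayed between 0.378 and 1. A two-sided exact permutation test of Bid alone, added after these values were seen, gave 0.00794 (0.0317 adjusted over the 4 Bid comparisons outside liver). That is the smallest value 252 splits allow and the one that any gene with groups that do not overlap gets here, so it adds nothing to the overlap itself.

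At 5 months the 6 WT adipose libraries ran from 9.91 to 13.2 CPM. The KO libraries held 4.45, 5.61, 6.50, 7.23, 11.6 and 16.1 CPM, so 4 were under the WT range and 1 was over it. The mean was 11.03 ± 1.21 CPM in WT and 8.58 ± 4.42 CPM in KO (n = 6 each), a log2 difference of -0.44 (SE 0.198, limma adjusted p 0.388, exact permutation p 0.126, adjusted 0.251). The difference was -0.23 without the 4 libraries that carried epididymis RNA. In WT adipose tissue every old library lay below every young one, with a log2 difference of -0.22 (SE 0.207, limma adjusted p 0.496). There, 11.7% of all genes had groups that did not overlap.

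The pair of highest young KO values came from libraries with the same closing numbers in liver and adipose tissue. K5L4285 and K5L4284 had 12.5 and 9.44 CPM of Bid, the highest of the KO livers, and K5F4285 and K5F4284 had 16.1 and 11.6 CPM, the highest of the KO adipose libraries. In muscle the same numbers had 1.07 and 0.995 CPM, against 0.731 and 0.571 CPM in the remaining KO libraries, on 9 to 19 reads each. The older codes do not recur between tissues.

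Muscle held little Bid in any group. The 20 muscle libraries ran from 0.322 to 2.13 CPM, on 4 to 31 reads, all below the lowest adipose library (4.45 CPM). Group means were 0.955 ± 0.647 CPM in WT (n = 6) and 0.841 ± 0.231 CPM in KO (n = 4) at 5 months. At 20 months they were 0.899 ± 0.377 CPM and 0.750 ± 0.545 CPM (n = 5 each). No genotype difference was detectable at this depth (exact permutation p 0.876 at 5 months and 0.508 at 20 months). The highest old WT value, 1.51 CPM, came from W18S42, the library with hepatocyte RNA. Without it the old WT mean was 0.745 ± 0.176 CPM (n = 4), and the log2 difference went from -0.15 to -0.04.

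Ordered by group mean of deposited CPM, Bid stood highest in WT liver at 20 months (25.4 CPM), then in WT liver at 5 months (17.2 CPM), WT adipose tissue at 5 months (11.03 CPM) and WT adipose tissue at 20 months (9.31 CPM). The next 4 groups were all KO, from young adipose tissue (8.58 CPM) through young liver (8.28 CPM) and old liver (7.32 CPM) to old adipose tissue (6.54 CPM). These KO neighbours overlapped in their libraries. The 4 muscle groups closed the order and also overlapped. All WT livers (14.2 CPM and up) lay above all WT adipose libraries (13.2 CPM and below), while KO livers (5.37 to 12.5 CPM) and KO adipose libraries (4.45 to 16.1 CPM) overlapped. The order between tissues rests on the scaling of the deposited CPM, whose column sums differed (0.696 M in W5F5005, 1.52 M in W5L5004). In reads, young WT adipose libraries held 254 to 331 of Bid and young WT livers 193 to 261. Old WT adipose libraries held 258 to 365 Bid reads and old WT livers 311 to 544.

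Bid lies 7.82 Mb from Gt(ROSA)26Sor, the locus that carries the Cre, on the same chromosome, so its neighbours were examined. There were 96 liver genes within 10 Mb of Gt(ROSA)26Sor, and Bid, which carries no test, was left out of the count. Of the others, 2 were called with limma between KO and WT at 5 months and 1 at 20 months. Over all 12924 liver genes the share called was 0.0696% at 5 months and 0.0232% at 20 months, so these counts lie above it. However, 1 of the 2 at 5 months was Gt(ROSA)26Sor, the targeted locus itself, which leaves Mug2 alone at each age. Leaving Bid out, the median log2 difference of this window was 0.04 at 5 months and 0.07 at 20 months, against 0.01 over all liver genes at both ages. Gt(ROSA)26Sor itself, which the targeted allele interrupts, fell by 1.27 at 5 months (SE 0.178, limma adjusted p 0.00149). At 20 months its log2 difference was -1.03 (SE 0.195) and was not called. The old KO livers held 3.78 to 6.85 CPM of it, below the old WT livers at 9.24 to 12.4 CPM.

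Besides Gt(ROSA)26Sor the gene called at 5 months was Mug2, which was also the one called at 20 months, an alpha-macroglobulin family gene made by liver, 1.11 Mb from Bid. It fell by 3.34 at 5 months (SE 0.537, limma adjusted p 0.006) and by 3.41 at 20 months (SE 0.588, adjusted p 0.0332). WT livers held 344 to 686 CPM of Mug2 at 5 months and 464 to 677 CPM at 20 months. Old KO livers held 32.4 to 77.9 CPM. Among the young KO livers, K5L4285 and K5L4284 held 214 and 204.5 CPM while the others held 11.5 to 45.7 CPM, so the young KO livers with the most Bid also had the most Mug2. Gt(ROSA)26Sor did not separate these livers, with 1.73 and 1.41 CPM in them and 1.64 to 3.08 CPM in the other young KO livers.

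**Figure D2:**
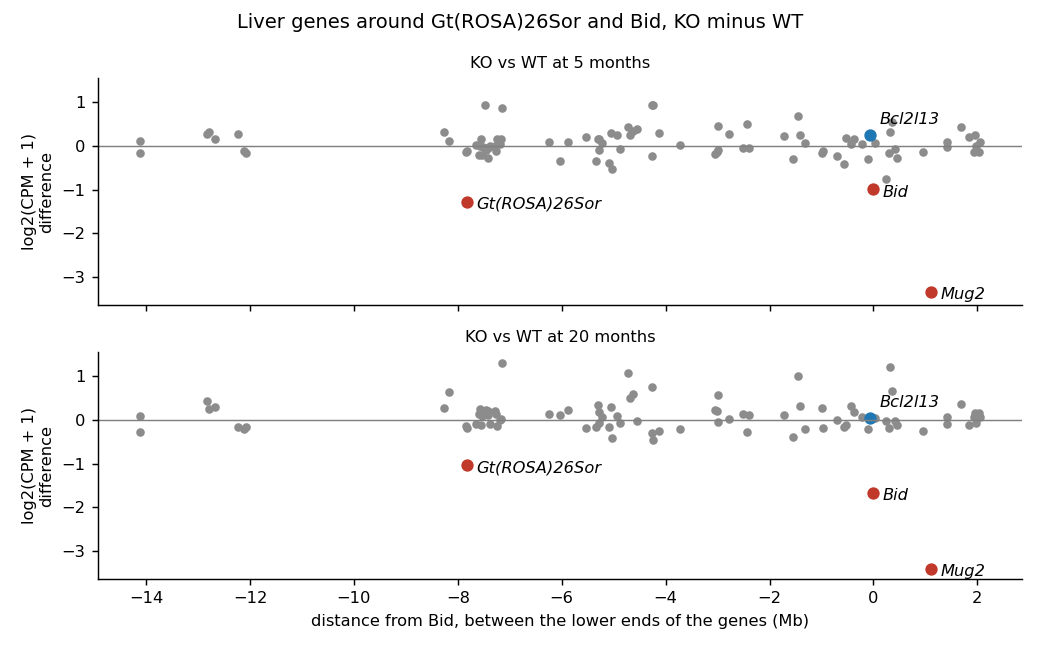
KO minus WT difference in liver on the log2(CPM + 1) scale, at 5 months (upper panel) and 20 months (lower panel), for the tested genes around Gt(ROSA)26Sor, by distance from Bid in Mb. Bid, Mug2 and Gt(ROSA)26Sor (red) lie below the cloud of neighbours (grey), and Bcl2l13 (blue), the gene beside Bid, lies close to 0 or above.

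The genes beside Bid differed in both directions. None of the 10 nearest tested liver genes (Il17ra, Hdhd5, Cecr2, Atp6v1e1, Bcl2l13, Mical3, Gm30842, Pex26, Tuba8 and Usp18) was called with limma at either age, and none had groups that did not overlap. Among them Gm30842 had 4.23 CPM in KO and 8.08 CPM in WT liver at 5 months (log2 difference -0.76, SE 0.257) and -0.03 at 20 months, and Atp6v1e1 had differences of -0.30 (SE 0.129) and -0.20. Tuba8 and Usp18 had higher KO means at both ages, by 0.33 and 0.55 at 5 months and by 1.22 and 0.66 at 20 months. Loss of Myc, the Cre allele and the strain origin of the DNA around it cannot be told apart in these values. Bcl2l13, a mitochondrial Bcl2-like gene that overlaps the Bid gene by 913 bases on the opposite strand in GENCODE M21, had 106 ± 12.2 CPM in KO against 89.7 ± 17.8 CPM in WT liver at 5 months (n = 6 each). Its log2 difference was 0.26 (SE 0.132, adjusted p 0.74) at 5 months and 0.05 (SE 0.145, adjusted p 0.979) at 20 months. The use of strand in counting is not given in the sources used here, so reads in this overlap cannot be assigned with certainty. Likewise Bak1 overlaps Ggnbp1 by 9200 bases and Bad overlaps Gpr137 by 620 bases, each on the opposite strand.

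The genes whose pattern was most like that of Bid were named by Pearson's r on log2(CPM + 1), as a description. Over the 12 group means they were Gdi2 (0.969), Adipor2 (0.968), Nsdhl (0.964), Cul4b (0.964) and Tvp23b (0.961), of 11248 genes. Such values share the tissue contrast, with muscle at one end, and those over liver libraries share the genotype groups and the depth of each library. Over the 22 liver libraries they were Mug2 (0.904), Rpl12 (0.722), Gt(ROSA)26Sor (0.715), Syngr2 (0.708) and Amz2 (0.704), of 9846 genes. Of the other members, Mcl1 had the highest value over liver libraries (0.391) and Bax the lowest (-0.443).

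Outside Bid in liver, no member was called between KO and WT. Counting tissue and age separately, 56 member tests were made at the 2 ages in 3 tissues. With limma 0 of them passed the threshold, with edgeR 0 and with DESeq2 0, and 5 had an unadjusted p under 0.05. Of all genes, 1692 of 14286 had such a p in young adipose tissue and 321 in old. In liver 897 of 12924 did at 5 months and 750 at 20 months, and in muscle 543 of 13237 and 1821. The share of all genes called was 0.105% for young and 0% for old adipose tissue, and 0% and 0.0302% for young and old muscle. With so few calls over all genes, a count of 0 among 9 or 10 members lies at the background. The change of the KO effect with age was called for none of the members tested in any tissue with limma, edgeR or DESeq2 (2 with an unadjusted p under 0.05, Bak1 in adipose tissue and Bax in liver). With limma it was called for 0 of 14286 adipose, 0 of 12924 liver and 0 of 13237 muscle genes, so this count lies at the background. An unadjusted p under 0.05 was seen for 407, 507 and 438 of these genes.

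**Figure D3:**
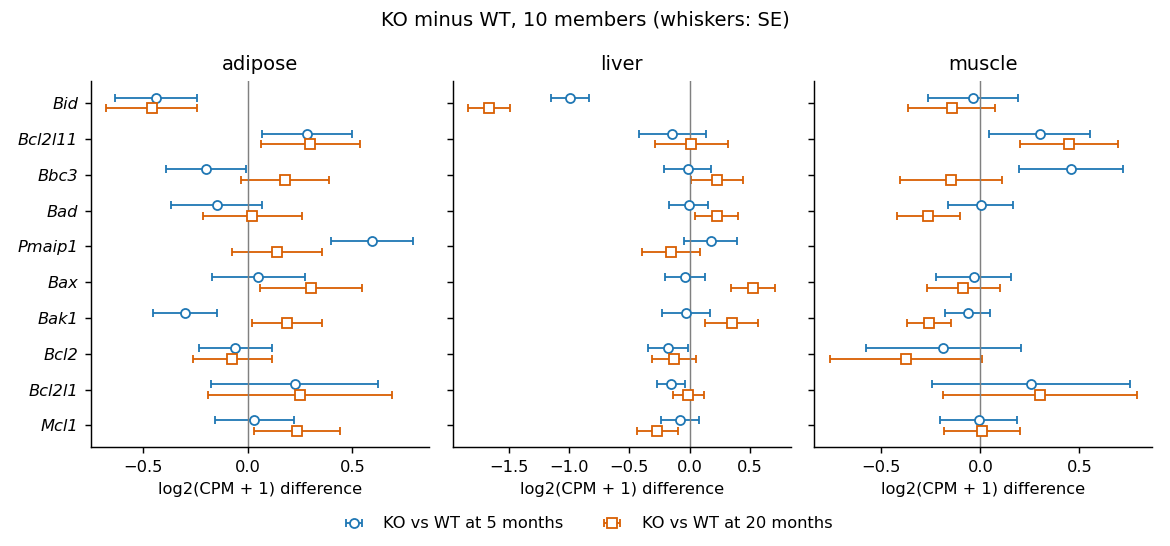
KO minus WT difference of the 10 members on the log2(CPM + 1) scale at 5 months (blue circles) and 20 months (orange squares), in adipose tissue, liver and muscle (whiskers are SE, and each tissue has its own scale). Bid in liver, at -0.996 and -1.67, is the value that chose the gene. All symbols are open because no tested member was called.

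Among the activators beside Bid, Bcl2l11 (Bim, an activator that binds all pro-survival proteins) had a KO mean above the WT mean in adipose tissue and muscle at both ages. Its largest KO difference was 0.45 in muscle at 20 months (SE 0.249, limma adjusted p 0.417), with KO libraries from 19.8 to 36.4 CPM and WT libraries from 13.1 to 26.0 CPM. In liver its KO and WT means were nearly the same at 20 months, 15.5 ± 3.78 and 15.5 ± 5.30 CPM (n = 5 each). Bbc3 (Puma, a p53 target) had KO differences from -0.20 to 0.46 over the 6 comparisons, none of them called.

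The sensitizers block pro-survival proteins without activating the effectors directly. Pmaip1 (Noxa, which mainly binds Mcl-1) had its largest KO difference in young adipose tissue, where WT libraries ran from 1.65 to 3.90 CPM and KO libraries from 2.73 to 6.82 CPM. The log2 difference was 0.59 (SE 0.197), and 3 of 6 KO libraries lay above every WT library, yet the limma adjusted p was 0.284. The highest of them, K5F4284, is also the library with most epididymis RNA. Pmaip1 was not tested in muscle, where it was under the filter, with group means of 0.191 to 0.487 CPM. Bad, a sensitizer held inactive by growth factor signalling, had KO differences from -0.26 to 0.23, none of them called.

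The effectors form the pores. Bax in liver at 20 months held 16.3, 18.8, 21.4, 22.5 and 30.3 CPM in WT and 25.04, 28.4, 33.1, 35.3 and 35.9 CPM in KO libraries. The groups overlapped through 1 high WT library (W18L03) and 2 KO libraries below it. The log2 difference of 0.53 (SE 0.183) had an unadjusted p under 0.05 and a limma adjusted p of 0.75. Bak1 was higher in 4 of 5 KO livers than in any WT liver at 20 months, with means of 17.9 ± 1.82 and 13.9 ± 2.13 CPM, a difference of 0.35 (SE 0.220, adjusted p 0.886). In muscle at 20 months Bak1 lay on the other side, at 17.3 ± 1.79 CPM in KO and 20.9 ± 2.05 CPM in WT (n = 5 each), and 4 of the 5 KO values were under the WT range (-0.26, SE 0.111, adjusted p 0.333).

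The pro-survival genes did not pass the test for genotype in any tissue. Mcl1, which encodes a short-lived protein, had KO differences from -0.27 in old liver to 0.23 in old adipose tissue. Bcl2l1 (Bcl-xL) had differences from -0.16 to 0.30, and Bcl2 from -0.37 to -0.06, all on the log2 scale with SE up to 0.498. The intervals are wide for Bcl2l1 in muscle and adipose tissue, where young libraries of 1 group differed by several fold.

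Levels between genes were compared per exon length, as CPM per kb of exon union in GENCODE M21, as means of the 4 groups of a tissue. Between tissues such values also carry the scaling of the deposited CPM. Mcl1 was the highest member in all 3 tissues, at 81.7 in muscle, 53.6 in adipose tissue and 31.7 in liver. Bax (17.2 in liver, 15.6 in adipose tissue, 8.997 in muscle), Bcl2l1 (10.7, 12.9 and 10.2) and Bak1 (7.99, 9.49 and 8.99) followed on this scale. Bid stood at 4.09 in liver, 2.50 in adipose tissue and 0.243 in muscle. The lowest were Pmaip1 (0.334, 1.198 and 0.128 in the same order) and, in liver, Bcl2 (0.203).

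**Figure D4:**
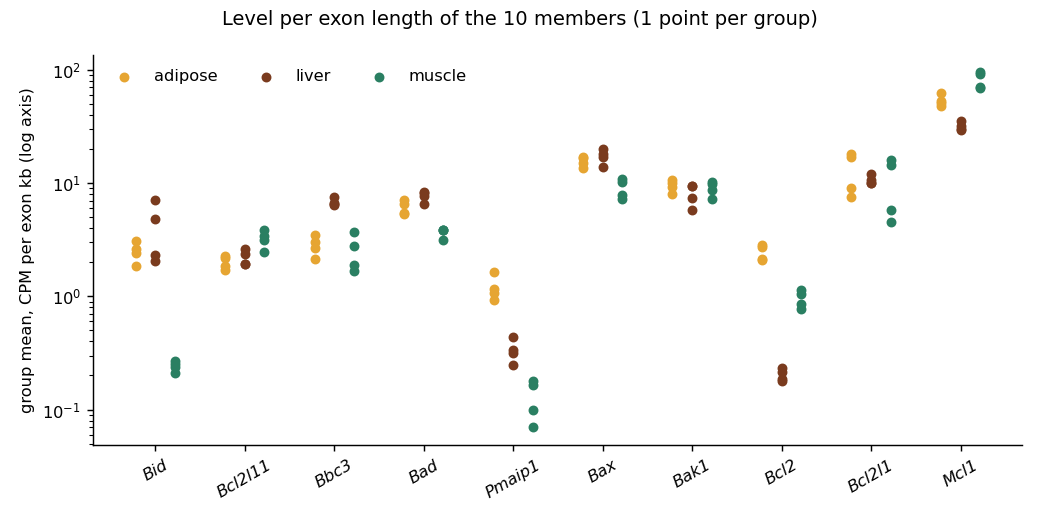
Group means of the 10 members as CPM per exon kb on a log axis, with 1 point per group and a colour per tissue. Mcl1 is at the top in each tissue, and Bid, Pmaip1 and Bcl2 show the widest spread between tissues.

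Some members had levels that did not overlap between tissues in deposited CPM. The share of all genes without such overlap was not counted, so this is a description only. Bcl2, the founding pro-survival gene, ran from 13.2 to 32.7 CPM in adipose tissue and from 1.09 to 3.24 CPM in liver, with no overlap. Muscle ranged from 3.71 to 20.6 CPM, into the adipose range. Mcl1 ran from 188 to 448 CPM in muscle and from 73.3 to 161 CPM in liver, also without overlap. In liver Bbc3 (7.35 to 21.8 CPM) and in adipose tissue Pmaip1 (1.58 to 6.82 CPM) had their highest tissue means. Bak1 was about even in deposited CPM, with mean levels of 22.8 CPM (adipose tissue), 19.2 CPM (liver) and 21.6 CPM (muscle). In reads it was not, with 455 to 953 in young WT adipose libraries, 203 to 369 in liver and 302 to 384 in muscle. Comparisons of tissues therefore depend on the scaling of the deposited CPM.

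Between the ages, few members passed the test. In adipose tissue with limma, 0 of 10 members were called between ages in WT (10.8% of all genes; 1 member with an unadjusted p under 0.05, 0 with edgeR and 1 with DESeq2) and 1 in KO (14.2% of all genes). In liver, where Bid was left out, the counts were 0 of 9 in WT (7.19%; 1 unadjusted, 0 with edgeR and 1 with DESeq2) and 0 of 9 in KO (2.99%; 0 unadjusted, 0 with either tool). In muscle 1 of 9 was called in WT (18.6%) and 2 of 9 in KO (5.57%). Those shares lie at or below the background, apart from the 2 of 9 in KO muscle, where leaving out any 1 of the 9 libraries left 0 or 1 call. Of all genes, 4347 of 14286 had an unadjusted p under 0.05 between ages in WT adipose tissue. In liver 3301 of 12924 genes did in WT and 2484 in KO.

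**Figure D5:**
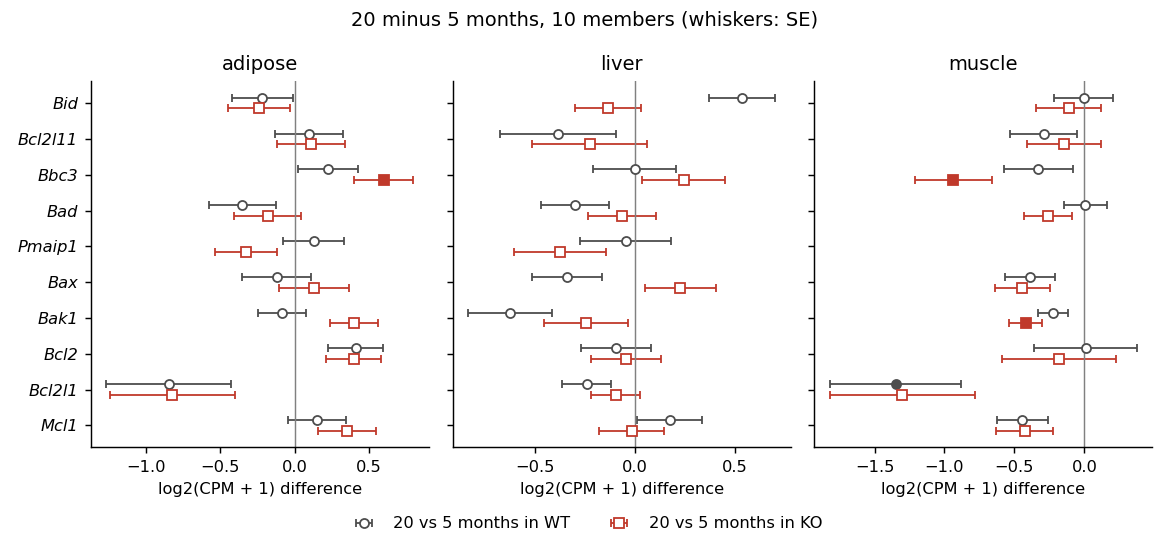
Difference between 20 and 5 months on the log2(CPM + 1) scale for the 10 members in WT (grey circles) and KO (red squares), by tissue, with SE whiskers and a scale per tissue. Filled symbols passed the test: Bbc3 in KO adipose tissue and KO muscle, Bak1 in KO muscle and Bcl2l1 in WT muscle.

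In muscle every tested member was lower on average in old than in young KO mice, 9 of 9, with a median log2 difference of -0.42 against -0.02 over all muscle genes. In WT muscle 7 of 9 were lower, with a median of -0.29 against 0.03. The members share the same libraries and are not replicates of each other.

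Bcl2l1 had the largest fall. The young WT muscles held 11.9, 20.5, 60.2, 96.8, 114 and 139 CPM, and the old ones 17.3 to 25.8 CPM with a median of 19.9. The young group was thus split, with W5S5277 and W5S5299 at the level of the old mice. The log2 difference was -1.35 (SE 0.467, limma adjusted p 0.0498). Over the main fit and 19 alternatives the adjusted p ran from 3.42e-04 to 0.205, with 6 calls. Among them it was 0.123 with only the groups compared, 0.205 without the Xist libraries and 0.107 without W18S42. In KO muscle the 4 young libraries (50.1, 51.9, 65.4 and 99.5 CPM) all lay above the 5 old ones (17.9, 18.1, 26.5, 30.8 and 40.2 CPM). That log2 difference of -1.30 (SE 0.518) was not called by limma (adjusted p 0.127), but was with only the groups compared (0.0135). In KO muscle, 15.8% of all genes had groups that did not overlap, and 2 members were among them, Bcl2l1 and Bbc3.

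Bbc3 fell in KO muscle with age. The young libraries held 6.33, 6.59, 7.08 and 11.4 CPM and the old ones 3.11, 3.28, 3.55, 3.79 and 3.93 CPM. All old libraries lay below all young ones, with a log2 difference of -0.94 (SE 0.272, limma adjusted p 0.0491). With the sex covariate it was -0.51 (adjusted p 0.196), and of the 2 young libraries with Xist, K5S5118 was the highest at 11.4 CPM and K5S5116 held 6.59 CPM, among the low ones. In young WT muscle the pair of highest Bbc3 values, 10.8 and 9.54 CPM, came from the libraries with Xist, against 2.42 to 4.56 CPM in the other 4. Bak1 in KO muscle fell by 0.42 (SE 0.118, adjusted p 0.0432), from 23.8 ± 5.02 CPM (n = 4) to 17.3 ± 1.79 CPM (n = 5). Over the main fit and 17 alternatives it was called 7 times.

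Bbc3 rose in KO adipose tissue with age, from 4.51 ± 0.551 CPM (n = 6) to 7.41 ± 1.54 CPM (n = 5). The young libraries ran from 3.60 to 5.22 CPM and the old ones were 5.06, 7.49, 7.55, 7.57 and 9.40 CPM, so 4 of 5 lay above all young ones. The log2 difference of 0.60 (SE 0.200) had a limma adjusted p of 0.0495. Over the main fit and 20 alternatives it was called 5 times, with adjusted p up to 0.134. Bbc3 therefore moved in opposite directions in KO adipose tissue and KO muscle. That difference between tissues was not tested.

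Bcl2l1 in adipose tissue also differed within the young groups. The young WT libraries held 30.8, 34.9, 38.3, 43.5, 136 and 214 CPM, the last 2 being those with Xist, and the old ones 27.4 to 49.2 CPM. In young KO adipose tissue the Xist libraries were again the highest, at 111 and 114 CPM, against 36.0 to 86.1 CPM in the other 4. The difference between ages in WT was -0.85 (SE 0.420, limma adjusted p 0.176) and ran from -1.29 (DESeq2, adjusted p 0.0238) to -0.12 (without the Xist libraries, adjusted p 0.805) over the alternatives.

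In liver, Bak1 was lower in old than in young WT mice, at 13.9 ± 2.13 CPM (n = 5) against 22.6 ± 6.42 CPM (n = 6). The log2 difference was -0.63 (SE 0.210, limma adjusted p 0.0698), and 3 of 5 old libraries lay below every young one. DESeq2 called it. No other member besides Bid, which was not tested there, had an unadjusted p under 0.05 between ages in liver. Such a p was common there, for 3301 of 12924 genes in WT and 2484 in KO, so Bak1 does not stand out from the background.

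Genes around the members were read from 4 lists chosen with earlier results known. None of them was called between KO and WT with limma, edgeR or DESeq2 in any tissue at either age. In the 6 comparisons that was 0 of 62 tests for 15 other Bcl2-family genes (5 with an unadjusted p under 0.05), 0 of 54 for 11 genes of death receptor signalling and Bid cleavage (2 unadjusted), 0 of 102 for 17 genes downstream of the mitochondria (4 unadjusted) and 0 of 46 for 9 regulators of BH3-only genes (4 unadjusted). The counts of all genes with such an unadjusted p are given above with the members. In liver, where Bid was low, the 8 tested genes of Bid cleavage had a median KO difference of 0.07 at 5 months and 0.09 at 20 months, against 0.01 over all genes.

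With age, some genes of these lists were called. In WT muscle, where 7.68% of all genes fell and 10.9% rose, 3 of 9 tested death receptor genes fell: Fas, the receptor upstream of Bid cleavage, from 12.5 ± 5.31 CPM (n = 6) to 5.72 ± 1.02 CPM (n = 5, log2 difference -0.90, limma adjusted p 0.0172), the TRAIL receptor Tnfrsf10b (-0.89, adjusted p 0.0315) and the TNF receptor Tnfrsf1a (-0.43, adjusted p 0.046). Of the 7 tested regulators 2 fell, Foxo1 (-1.70, adjusted p 0.0409) and Foxo3 (-1.03, adjusted p 0.0136), transcription factors known to drive Bcl2l11 and Bbc3. Foxo3 went from 121 ± 41.4 to 56.1 ± 10.3 CPM. The mitophagy gene Bnip3 fell by 0.93 and the BH3-only gene Bmf by 0.78 (adjusted p 0.0349 and 0.0443), while Bcl2l13 rose by 0.34 (adjusted p 0.0291), which makes 3 of 9 other family members.

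Downstream of the mitochondria, the caspase inhibitors Birc2 and Xiap rose in WT muscle by 0.54 and 0.52 (limma adjusted p 0.0043 and 0.0292), and the inhibitor-binding protease gene Htra2 fell by 0.41 (adjusted p 0.0395). Birc2 also rose in KO muscle, 1 of 17 there, from 23.1 ± 1.34 CPM (n = 4) to 34.4 ± 1.67 CPM (n = 5, 0.55, adjusted p 0.0122), and in WT liver, from 17.6 ± 2.53 to 23.2 ± 1.71 CPM (0.39, adjusted p 0.0378, called in 7 of 19 alternatives). Bmf fell in KO muscle by 1.01 (adjusted p 0.0491), as 1 of 9 other family genes. Of all genes, 5.57% were called in KO muscle and 7.19% in WT liver, where Birc2 was again 1 of 17. In WT muscle the downstream list thus had 3 of 17 genes called, near the 18.6% of all genes. Most of these calls in WT muscle were not stable over the 19 alternatives. Birc2 was called in 19, Foxo3 in 18 and Fas in 16, but Xiap in 11, Tnfrsf10b in 10, Bcl2l13 in 8, and Foxo1, Bnip3, Bmf, Tnfrsf1a and Htra2 in 7. Of the 11 genes 10 were no longer called without the Xist libraries, and 8 were not without W18S42, the old WT muscle library with hepatocyte RNA. In KO muscle Birc2 was called in 15 of 17 alternatives and Bmf in 3.

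In adipose tissue Apaf1, the scaffold of the apoptosome, rose with age in WT from 12.1 ± 2.76 to 18.5 ± 2.05 CPM (0.60, limma adjusted p 0.0456) and in KO from 9.88 ± 2.30 to 19.4 ± 6.14 CPM (0.88, adjusted p 0.00593, called in 20 of 20 alternatives). In KO adipose tissue, where 10.5% of all genes rose, 2 of 8 regulators did, the cell cycle factor E2f1 (1.52, adjusted p 0.0218) and the p53 inhibitor Mdm2 (0.45, adjusted p 0.0355). In WT adipose tissue the cytokine Tnf rose from 0.354 to 1.28 CPM (0.69, adjusted p 0.0407) and Bcl2l10 fell from 2.11 to 0.389 CPM (-1.02, adjusted p 0.0296). There, Tnf was 1 of 10 tested death receptor genes, Bcl2l10 1 of 12 other family genes and Apaf1 1 of 17 downstream genes. Of all genes 10.8% were called in WT, so these counts lie near or below the background. In KO, Apaf1 was again 1 of 17, against 14.2% of all genes. Over 20 alternatives Apaf1 in WT was called in 6, Mdm2 in 8, Tnf in 10, Bcl2l10 in 11 and E2f1 in 16, and edgeR called 1 of the 8 regulators in KO. Macrophage markers reached higher sums in old adipose tissue, with 778 to 1228 CPM in young WT, 838 to 1895 CPM in old WT, 649 to 1811 CPM in young KO and 1142 to 2946 CPM in old KO libraries. Their part in these changes was not tested.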

How the data were processed

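RNA of 64 mouse tissue libraries was measured by poly-A selected sequencing with a directional library kit, per the labels' protocols. The authors deposited 1 table of read signal per gene, called CPM and made with the CLC software per the file headers, whose column sums (0.529 to 1.64 M) show a scaling factor per library. Per the submitters' processing notes the builds are GRCm38.p6 and mm10. Strand use and counting settings are not given in the sources used here. Whole reads were recovered from the values (100% within 0.01 read), giving 15.4 to 28.5 M reads per library. Limma 3.58.1 (R 4.3.3) was run per tissue on log2(CPM + 1) over 4 groups, for genes above 1 CPM in at least 5 libraries (4 in muscle): 14286 adipose, 12924 liver and 13237 muscle genes, with Benjamini-Hochberg adjustment over all of them and a threshold of 0.05. Alternatives were edgeR 4.0.16 and DESeq2 1.42.0 on the recovered reads, a pseudocount of 0.1, no filter, rescaling, an Xist covariate, and leaving out libraries. The exact permutation test of Bid was added after seeing the data. Bid was left out of every liver count, since those libraries chose it (for the comparisons of ages this was decided after seeing the data). The members and the gene lists were chosen with earlier results of these data known. Named were the 10 members, called genes of the lists (up to 3 per list in an ageing comparison), the 5 genes most like Bid, and called genes within 10 Mb of Gt(ROSA)26Sor. The fit was tested on simulated data. Labels do not say that libraries of a group come from separate animals, so p-values measure the spread between libraries. No member or gene of interest was imputed, and no library was dropped from the main comparisons.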

Additional observations from a re-analysis of the deposited data

Results flagged for a closer look

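Within groups of 4 to 6 libraries, a single library lay far from the others for 7 of 120 member and group combinations, where chance alone gives about 1 in 20. Each was on the high side. The old WT liver library W18L04 had 33.5 CPM of Bid, against 22.7 to 24.8 CPM in the other 4, and the same library had 161 CPM of Mcl1, so it raises the WT side of the old liver comparison for both genes. In young KO muscle, K5S5118 had 11.4 CPM of Bbc3. In young KO adipose tissue, K5F5118 had 32.2 CPM of Bad. Bcl2l1 stood at 64.5 CPM in K18F28 of old KO adipose tissue and at 58.5 CPM in K5L4284 of young KO liver. Mcl1 stood at 386 CPM in W18S41 of old WT muscle.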

How the results depend on the processing

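No sign of a called value turned under any alternative, and of the values of single genes 2874 kept their side of the threshold, 52 lost it and 14 gained it. The counts of called members in the KO against WT comparisons stayed at 0 under every alternative run. The ageing counts were fragile. In KO adipose tissue (1 call) the count was 0 with a pseudocount of 0.1, no filter, edgeR, rescaling to equal column sums, the sex covariate or only the groups compared, and 0 to 2 without a library (2 without K18F28). In WT adipose tissue (0 calls) DESeq2 gave 1. In WT liver (0 calls, Bid left out) DESeq2 gave 1, and leaving out a library gave 0 to 1 (1 without W5L5277 or W5L5299). In KO muscle (2 calls) no filter gave 0, rescaling 1, the sex covariate 0 and only the groups compared 4, and leaving out a library gave 0 to 1. In WT muscle (1 call) the count was 0 with a pseudocount of 0.1, no filter, rescaling, the sex covariate, without the Xist libraries or with only the groups compared, 2 with DESeq2, and 0 to 3 without a library (3 without W5S5277, 2 without W18S41). The cause was not tested. No paired analysis was possible because the library codes of the groups compared share no numbers within a tissue. Depth limits Bid in muscle (4 to 31 reads per library) and Pmaip1 in muscle and liver.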
